A study of Mus musculus with 9 samples.

Results

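The fused S100 proteins of mouse epidermis were examined as a family of 7 genes, Flg (filaggrin), Flg2 (filaggrin-2), Hrnr (hornerin), Rptn (repetin), Crnn (cornulin), Tchh (trichohyalin) and Tchhl1 (trichohyalin-like 1). They were taken by symbol from a deposited table of 38203 genes, and where a symbol had more than 1 row, which was so for Flg only, the row with the highest mean over all libraries was used. All 7 were among the 16897 genes that averaged above 0.1 FPKM in at least 1 genotype and were therefore tested. Tchhl1 passed this minimum only through its level in embryos without either Esrp gene, so its difference there was partly set by the filter.

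Esrp1 and Esrp2 are splicing regulators of epithelial cells. RNA-seq was made from trunk epidermis, basal to cornified layers, which had been separated from the dermis of single E18.5 mouse embryos on a mixed C57BL6/129Sv background, with 1 embryo for each of 9 libraries. WT embryos (2 libraries) carried both genes, KO embryos (3 libraries) were Esrp1 KO and Esrp2 WT, KH embryos (2 libraries) were Esrp1 KO with a single working Esrp2 allele (Esrp2 Het), and DKO embryos (2 libraries) were Esrp1 KO and Esrp2 KO. The Esrp1 allele had been deleted in the germline with Zp3-Cre and removes the exons of the first RNA recognition motif, and the Esrp2 allele came from a knockout ES cell line, so that both losses were present in every tissue and from the start of development. The sample labels give the controls as WT for both genes, whereas the extraction text gives them as Esrp2-/-. Esrp2 was at 118 and 136 FPKM in the control libraries and at 0.0843 and 0.0463 FPKM in the DKO libraries, and the controls are called WT here. Esrp1, whose deleted transcript is still counted by gene, was at 119 and 142 FPKM in WT and between 18.2 and 55.1 FPKM in the other libraries. FPKM (fragments counted per length of exon and per depth of the library) is a level per length, so that levels of different genes can be set side by side, and it carries no read counts, so that the depth behind a single value is unknown.

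Fused S100 proteins join a calcium-binding S100 domain at the amino terminus to a long region of repeats, and their genes lie together in the epidermal differentiation complex, the cluster of late differentiation genes. Profilaggrin, the product of Flg, is stored in the keratohyalin granules of the granular layer, is cut into filaggrin monomers that bundle keratin filaments as the cell cornifies, and is then broken down to amino acids that hold water in the cornified layer. Hornerin and filaggrin-2 are close relatives of filaggrin with a similar place in the upper epidermis. Trichohyalin is known from the inner root sheath of the hair follicle, and repetin and cornulin are known for high levels in the tongue, oesophagus or forestomach and low levels in undisturbed trunk epidermis.

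In DKO epidermis the family separated into 2 kinds of members. Rptn, Crnn and Tchhl1 rose over WT, by 21.6, 9.33 and 52.3 times in average FPKM. Flg, Flg2, Hrnr and Tchh did not pass the test, and the last 3 were lower in each DKO embryo than in either WT embryo, as were 26.4% of all tested genes. In KO and KH epidermis no member passed the test in either direction.

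The 300 bases around the start sites of the members that rose are shown first, because these genes rose together while the members lying between them did not pass the test. They run from 250 bases before the start site to 50 bases after it, on the plus strand of mouse chromosome 3 in GRCm38.p6, from RefSeq, in which all 7 members had an entry. Capitals mark matches to TGANTCA, the letters of the AP-1 motif with any base (N) in the middle, and to TATAAA, the letters of a TATA box. The middle base was A or T in every match to TGANTCA in the members. Both strands were searched.
Rptn promoter (chr3:93393449-93393748): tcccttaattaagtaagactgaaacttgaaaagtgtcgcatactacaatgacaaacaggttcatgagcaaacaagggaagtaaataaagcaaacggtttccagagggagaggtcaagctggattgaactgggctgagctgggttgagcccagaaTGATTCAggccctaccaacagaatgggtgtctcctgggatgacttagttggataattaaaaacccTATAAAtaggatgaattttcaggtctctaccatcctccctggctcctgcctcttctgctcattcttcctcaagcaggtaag
Crnn promoter (chr3:93144539-93144838): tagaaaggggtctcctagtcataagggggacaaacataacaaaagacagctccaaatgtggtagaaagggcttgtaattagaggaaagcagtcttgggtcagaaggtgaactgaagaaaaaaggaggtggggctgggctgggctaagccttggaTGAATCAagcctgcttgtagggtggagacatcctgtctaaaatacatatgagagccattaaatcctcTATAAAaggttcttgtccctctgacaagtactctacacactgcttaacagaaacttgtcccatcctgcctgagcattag
Tchhl1 promoter (chr3:93468504-93468803): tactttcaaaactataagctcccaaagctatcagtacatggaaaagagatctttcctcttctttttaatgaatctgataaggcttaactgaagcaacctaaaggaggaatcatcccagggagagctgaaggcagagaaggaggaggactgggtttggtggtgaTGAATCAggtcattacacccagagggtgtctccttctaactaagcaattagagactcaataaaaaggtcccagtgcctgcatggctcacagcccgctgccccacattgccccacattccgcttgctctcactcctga

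The AP-1 letters stood at -96 to -90 bases from the start site in Rptn, at -96 to -90 in Crnn and at -87 to -81 in Tchhl1. They were also in the promoters of Flg (-103 to -97) and Flg2 (-69 to -63), neither of which passed the test, and 5 of the 7 members therefore held them, against 7.81% of 32851 promoters of this length. TATAAA was in 4 members, Rptn, Crnn, Flg and Hrnr, and in 13.6% of all promoters. The grainyhead letters AACCNGTT, which overlap neither of the other motifs, were in Rptn only and in 2.09% of all promoters, and the AP-2 letters GCCNNNGGC were in no member and in 16.6% of all promoters. Tchh held none of the 4 motifs in this window. The motif letters did not divide the members that rose from those that did not.

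Rptn had the largest difference on the log2(FPKM + 1) scale; with a pseudocount of 0.1 FPKM, Tchhl1 was ahead, at 4.61 (SE 0.44) to 4.42 (SE 0.44) for Rptn. The WT libraries read 13.4 and 14.8 FPKM, the KO libraries 5.0, 13.2 and 13.6 FPKM, the KH libraries 8.31 and 5.92 FPKM and the DKO libraries 321 and 288 FPKM. Both DKO libraries lay far above the other 7, whose highest value was that of WT replicate 2. The average was 14.1 ± 1.01 FPKM (SD, n = 2) in WT and 304 ± 23.3 FPKM (SD, n = 2) in DKO, which moved Rptn from place 5279 to place 368 in the order of levels over the tested genes. On the log2(FPKM + 1) scale DKO exceeded WT by 4.34 (SE 0.40, adjusted p = 0.00175 from limma over all tested genes), place 11 in the order of log2 differences over 16897 genes.

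Crnn rose as well, from a lower level. It was at 2.36 and 3.57 FPKM in the WT embryos, 1.29, 2.31 and 3.53 FPKM in the KO embryos, 1.56 and 3.78 FPKM in the KH embryos and 34.8 and 20.6 FPKM in the DKO embryos. The WT, KO and KH libraries overlapped, and both DKO libraries stood above them. The log2 difference from WT was 2.83 (SE 0.43, adjusted p = 0.0234 from limma). Crnn was called here, but not with the replicate number as a block (2.83, adjusted p = 0.0642 from limma). This was the least secure of the 3 calls, since the adjusted p from limma was 0.211 when WT replicate 1 was left out, 0.181 for WT replicate 2, 0.0571 for KO replicate 2, 0.193 for DKO replicate 1 and 0.0760 for DKO replicate 2, while the log2 difference stayed between 2.46 and 3.19.

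Tchhl1, a relative of trichohyalin, was close to 0 outside DKO. It was listed at 0.119 and 0.0682 FPKM in the WT embryos, 0.0391, 0.0363 and 0.0935 FPKM in the KO embryos and 0.0838 and 0.0370 FPKM in the KH embryos. The DKO libraries were at 6.59 and 3.19 FPKM. Both stood above the other 7 libraries, among which the genotypes overlapped. The log2 difference from WT was 2.37 (SE 0.23, adjusted p = 0.00212 from limma), and without the minimum of 0.1 FPKM, which Tchhl1 passed only through DKO, the adjusted p was 0.0886 and it was not called. The ratio of 52.3 rests on a WT average of 0.0934 ± 0.0356 FPKM (SD, n = 2), whose counting error is unknown, and the pseudocount of 1 FPKM makes the log2 value understate it.

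**Figure D1:**
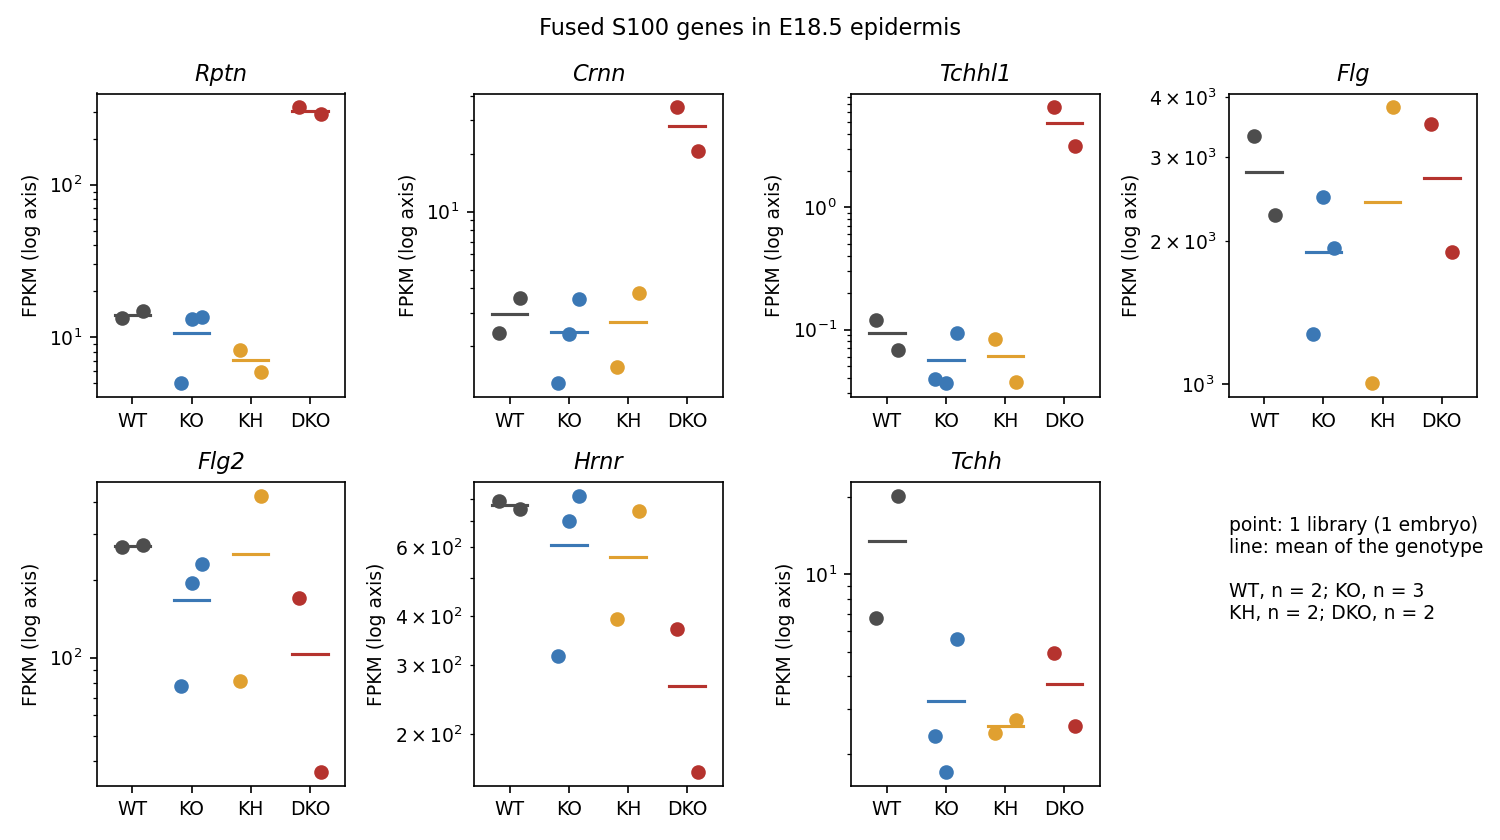
FPKM of the 7 fused S100 genes in each library on a log axis, by genotype; each point is 1 embryo and each line the mean of the genotype (WT, KH and DKO, n = 2; KO, n = 3). Both DKO points stand above all others for Rptn, Crnn and Tchhl1, and below both WT points for Flg2, Hrnr and Tchh.

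Flg, by the row that the rule selects for its high level, was the most abundant member; the other row of that symbol averaged 284 FPKM in WT, below Hrnr. The selected row was at 3323 and 2263 FPKM in the WT embryos, 1279, 2476 and 1930 FPKM in the KO embryos, 1005 and 3815 FPKM in the KH embryos and 3520 and 1894 FPKM in the DKO embryos. The 4 genotypes overlapped, and the spread within a genotype was up to 3.80 times between the lowest and the highest library. The DKO average was 96.9% of WT, and the log2 difference was -0.09 (SE 0.67, adjusted p = 0.969 from limma), an error too wide to show that the levels were alike. Flg stood at place 40 in the order of levels in WT and at place 53 in DKO.

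Hrnr was at 788 and 753 FPKM in the WT embryos, 316, 700 and 814 FPKM in the KO embryos, 393 and 744 FPKM in the KH embryos and 372 and 160 FPKM in the DKO embryos. Both DKO libraries lay below both WT and both KH libraries, but KO replicate 1 was lower than DKO replicate 1. The DKO average was 34.5% of WT, with a log2 difference of -1.66 (SE 0.56, adjusted p = 0.251 from limma). This was -2.26 when DKO replicate 1 was left out and -1.05 for DKO replicate 2, neither called.

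Flg2 was at 267 and 272 FPKM in the WT embryos, 77.6, 195 and 229 FPKM in the KO embryos, 81.5 and 421 FPKM in the KH embryos and 170 and 36.3 FPKM in the DKO embryos. The DKO and WT libraries did not overlap, while KH held both a higher library than WT and a lower one than DKO replicate 1. The DKO average was 38.2% of WT, with a log2 difference of -1.76 (SE 0.89, adjusted p = 0.418 from limma). It was -2.86 without DKO replicate 1 and -0.66 without DKO replicate 2, neither called.

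Tchh differed from the others in that WT stood apart from all mutants. It was at 6.73 and 20.1 FPKM in the WT embryos, 2.35, 1.70 and 5.57 FPKM in the KO embryos, 2.41 and 2.72 FPKM in the KH embryos and 4.94 and 2.56 FPKM in the DKO embryos. Both WT libraries were above every other library, with WT replicate 2 furthest. Of all tested genes, 12.1% in KO, 16.6% in KH and 26.4% in DKO were wholly below WT, each genotype taken alone. The log2 difference of Tchh from WT was -1.71 (SE 0.49, adjusted p = 0.853) in KO, -1.84 (SE 0.54, adjusted p = 0.980) in KH and -1.48 (SE 0.54, adjusted p = 0.289) in DKO, all from limma, and none was called. The 3 differences share the WT libraries. Without WT replicate 2 they were -0.99 in KO, -1.12 in KH and -0.75 in DKO, and they were -2.44, -2.57 and -2.20 when WT replicate 1 was left out.

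Against WT, 3 of the 7 members were called in DKO, all higher, where 0.728% of the 16897 tested genes were called in either direction and 0.479% were called higher. By limma 5 of the 7, the called members with Hrnr and Tchh, had an unadjusted p under 0.05, as did 13.8% of all tested genes. The members' median log2 difference was -0.09, beside 0.02 over all tested genes, because 4 of the 7 had negative values. Without the minimum of 0.1 FPKM, with all 38203 genes tested, 0 members were called by limma, at adjusted p = 0.0673 for Rptn, 0.207 for Crnn and 0.0886 for Tchhl1. In 3 members both DKO libraries were above both WT libraries and in another 3 below them, where 27.8% of all tested genes were above and 26.4% below. In KO 0 of 7 members were called (0.0296% of all genes), and in KH 0 of 7 (0.0296% of all genes); by limma 1 member, Tchh, had an unadjusted p under 0.05 in each. All 7 log2 differences from WT were negative in KO, with a median of -0.49, and in KH, with a median of -0.51, while the median over all tested genes was close to 0 in both; these comparisons share the WT libraries. These signs rested in part on single libraries. Without KH replicate 1, 3 of the 7 were positive in KH (Flg 0.48, Flg2 0.64 and Crnn 0.29) and the median was -0.05. Without KO replicate 1 the median in KO was -0.06, with all 7 still negative.

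**Figure D2:**
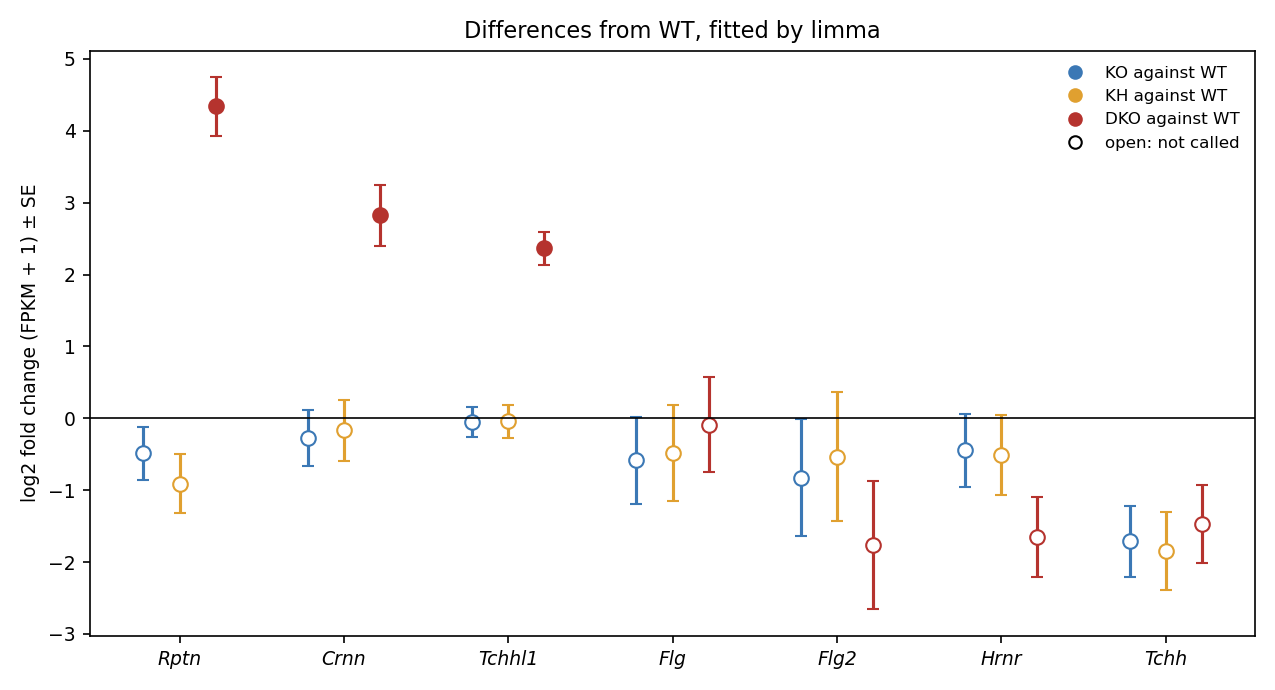
Log2 differences of KO, KH and DKO from WT in the 7 fused S100 genes, on the log2(FPKM + 1) scale with the standard error from limma; filled points were called and open points were not. Rptn, Crnn and Tchhl1 are called in DKO at 4.34, 2.83 and 2.37, and every other point is open.

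Removing Esrp2 from embryos that already lacked Esrp1 separated the same members. Against KO, DKO was higher by 4.82 in Rptn (SE 0.37, adjusted p = 0.00047), by 3.10 in Crnn (SE 0.39, adjusted p = 0.00977) and by 2.42 in Tchhl1 (SE 0.21, adjusted p = 0.000908), on the log2(FPKM + 1) scale by limma. These were the 3 members called in that comparison, where 0.639% of all tested genes were called and 0.521% were called higher. Against KH, which differs from DKO by a single Esrp2 allele, DKO was higher by 5.25 in Rptn (SE 0.40, adjusted p = 0.000582), by 2.99 in Crnn (SE 0.43, adjusted p = 0.0234) and by 2.41 in Tchhl1 (SE 0.23, adjusted p = 0.00221), and again 3 members were called, where 0.426% of all tested genes were called and 0.385% were called higher. Between KH and KO 0 members were called by limma (0% of all tested genes), and 0 members, of 185 genes in all, had an unadjusted p under 0.05. The comparisons against WT, KO and KH share the DKO libraries.

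Crnn again depended on single libraries in these comparisons. Against KO its adjusted p from limma was 0.138 without DKO replicate 1. Against KH it was 0.0613 when WT replicate 1 was left out, 0.0921 for WT replicate 2, 0.0631 for KO replicate 2, 0.102 for KH replicate 1, 0.224 for DKO replicate 1 and 0.0746 for DKO replicate 2. Rptn and Tchhl1 were called against WT, KO and KH without each of the 9 libraries in turn, but a genotype of 2 libraries was then left with 1, which was assumed to vary like the other genotypes, and Tchhl1 had passed the filter only through DKO. Against KH, fitting only the 2 genotypes lost the calls of Crnn (adjusted p = 0.136 from limma) and Tchhl1 (adjusted p = 0.113 from limma). With no filter only Rptn was called against KO and against KH.

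The libraries also differed in their share of granular layer RNA, and in a way that crossed the genotypes. The summed level of 8 granular layer genes (among them Lor, the envelope protein loricrin, and Asprv1, the protease that cuts profilaggrin) was 18828 and 17410 FPKM in the WT embryos, 7592, 18424 and 19132 FPKM in the KO embryos, 6757 and 19876 FPKM in the KH embryos and 17453 and 7891 FPKM in the DKO embryos. KO replicate 1, KH replicate 1 and DKO replicate 2 were thus low. In these 3 libraries the basal keratinocyte genes were summed at 8537, 7576 and 7406 FPKM, above the 4137 to 6607 FPKM of the other 6. In bulk epidermis fewer granular cells and less RNA per granular cell cannot be told apart. Flg, Flg2 and Hrnr had their lowest value within KO, KH and DKO in the same 3 libraries; Rptn did so in KO and DKO, and Crnn in KO, KH and DKO.

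Set beside that sum, Hrnr was at 4.19 and 4.33% of the granular level in WT, at 4.16, 3.80 and 4.25% in KO, at 5.82 and 3.74% in KH and at 2.13 and 2.03% in DKO. On this scale, which like the covariate fit below was not planned, both DKO libraries lay below the other 7, including KO replicate 1. How many of all tested genes separate in this way was not computed. Flg2 was at 1.42 and 1.56% in the WT embryos, 1.02, 1.06 and 1.20% in the KO embryos, 1.21 and 2.12% in the KH embryos and 0.972 and 0.460% in the DKO embryos, again with DKO lowest. Flg was at 17.6 and 12.997% in WT, at 16.8, 13.4 and 10.1% in KO, at 14.9 and 19.2% in KH and at 20.2 and 24.0% in DKO. Rptn stood at 0.0710 and 0.0850% in WT and at 1.84 and 3.65% in DKO.

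With the granular sum as a covariate in limma, a setting chosen after the data were seen, Hrnr in DKO was lower than in WT by a log2 difference of -1.13 (SE 0.23) with an adjusted p of 0.0596, which was not called. In the same fit the log2 differences of Rptn (4.52, SE 0.40, adjusted p = 0.00211), Crnn (3.19, SE 0.24, adjusted p = 0.000978) and Tchhl1 (2.47, SE 0.23, adjusted p = 0.0025) were called. The same covariate left 2 of the 7 members negative in KH against WT, with a median of 0.06. Flg in DKO moved from -0.09 to 0.47 (SE 0.35, adjusted p = 0.474 from limma) with the covariate and was not called. Flg2 in DKO moved from -1.76 to -0.86 (SE 0.26, adjusted p = 0.173) with the covariate and to -0.66 (SE 0.21, adjusted p = 0.354) without the 3 libraries of low granular level. In that fit DKO and KH had 1 library each, assumed to vary like the other genotypes, and Rptn (adjusted p = 0.0123) and Tchhl1 (adjusted p = 0.00737) were called by limma and Crnn was not, at a log2 difference of 3.19 (SE 0.33, adjusted p = 0.0909).

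**Figure D3:**
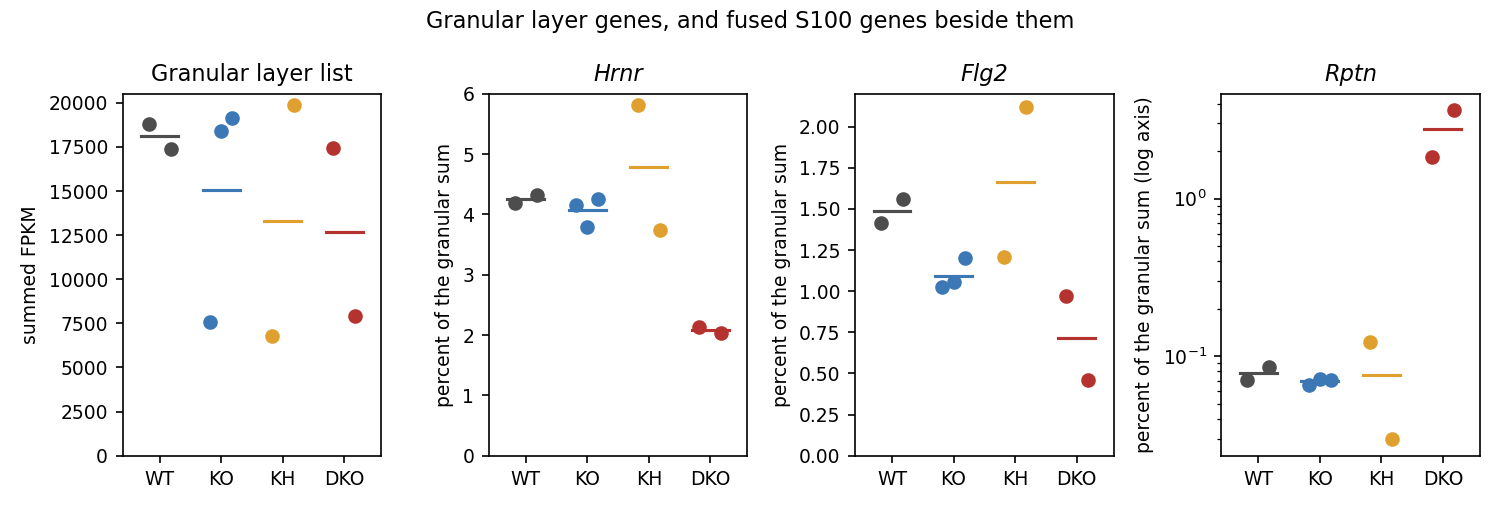
Summed FPKM of 8 granular layer genes in each library (left), and the levels of Hrnr, Flg2 and Rptn as a percent of that sum (Rptn on a log axis); points are embryos and lines genotype means. KO, KH and DKO each hold 1 library between 6757 and 7891 FPKM in the left panel, and the DKO points are lowest for Hrnr and Flg2 and highest for Rptn.

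The genes that process and break down filaggrin were read from a list of 16. By limma 0 were called in DKO against WT, 2 had an unadjusted p under 0.05, as did 13.8% of all tested genes, and 13 of 16 log2 differences were negative, with a median of -0.46 beside 0.02 over all tested genes. Most values were negative in the other mutants too, 16 of 16 in KO (median -0.38) and 15 of 16 in KH (median -0.50), none called, and the median of DKO was -0.12 against KO and -0.06 against KH. These comparisons share libraries. Asprv1, the most abundant, averaged 8157 ± 172 FPKM (SD, n = 2) in WT and 4908 ± 2680 FPKM (SD, n = 2) in DKO. Blmh, bleomycin hydrolase, which finishes the breakdown to amino acids, had a log2 difference of -0.37 (SE 0.44), and Klk7, a protease of the cornified layer, one of -0.69 (SE 0.59). The 2 genes with an unadjusted p under 0.05 were named after their values were seen. Hal, histidase, which makes urocanic acid from the histidine that filaggrin releases, was at 917 and 710 FPKM in WT, 208 to 526 FPKM in KO, 184 and 573 FPKM in KH and 313 and 109 FPKM in DKO, so that every mutant library was below both of WT and the mutants overlapped. DKO differed from WT with a log2 difference of -2.12 (SE 0.67, adjusted p = 0.230 from limma). Of all tested genes, 12.1% in KO, 16.6% in KH and 26.4% in DKO were wholly below WT, each genotype taken alone. Uroc1, urocanase, was between 0.302 and 0.363 FPKM in WT, between 0.162 and 0.394 FPKM in KO and KH and between 0.105 and 0.110 FPKM in DKO.

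Of 13 partners of the fused S100 proteins in the cornified envelope, the crosslinked shell of the dead keratinocyte, 0 were called by limma in DKO against WT, 2 had an unadjusted p under 0.05 (13.8% of all tested genes did) and 12 of 13 log2 differences were negative, with a median of -0.40 beside 0.02 over all tested genes. In KO and in KH, 11 of 13 were negative, with medians of -0.40 and -0.47, and the median of DKO was -0.05 against KO and 0.09 against KH. Krtdap, the keratinocyte differentiation-associated protein, averaged 14309 ± 1214 FPKM (SD, n = 2) in WT and 15799.5 ± 9571 FPKM (SD, n = 2) in DKO. Lor had a log2 difference of -0.35 (SE 0.70) and Sbsn, suprabasin, one of -0.26 (SE 0.64). The 2 genes with an unadjusted p under 0.05, named after their values were seen, were Tgm5, a transglutaminase that crosslinks envelope proteins, at -1.13 (SE 0.27, adjusted p = 0.133 from limma) and Ppl, periplakin, at -1.004 (SE 0.37, adjusted p = 0.294 from limma). Tgm5 was at 19.4 and 18.49 FPKM in WT, 8.46 to 13.6 FPKM in KO, 8.96 and 12.5 FPKM in KH and 9.44 and 6.91 FPKM in DKO, below WT in every mutant library. The shares of all tested genes wholly below WT are those given for Hal.

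Marker genes of the places where the members are known to be abundant were read beside them, and their part in the results was not tested. Of the 7 markers of oral, tongue and oesophageal epithelium, 1 rose in DKO, Krt84, a keratin of the tongue, from 0.228 and 0.453 FPKM in WT to 4.63 and 3.61 FPKM in DKO (log2 difference 1.93, SE 0.17, adjusted p = 0.00133 from limma). Krt13, a keratin of internal stratified epithelia, was at 3.14 and 2.77 FPKM in WT and at 47.1 and 9.46 FPKM in DKO, with an adjusted p of 0.177 from limma. By limma 4 of the 7, all with higher values in DKO, had an unadjusted p under 0.05, Krt84, Krt13, Krt4 and Krt36, the last 2 named after their values were seen. Of all tested genes 13.8% did. Krt24, Krt76 and Sprr3 of the same list, also named after their values were seen, had log2 differences of -0.06, 0.04 and 0.11. Krt4 and Krt36 passed the minimum of 0.1 FPKM only through DKO, so that their direction was partly set by the filter. Krt4, a keratin of the oesophagus, averaged 0.0469 FPKM in WT and 0.317 FPKM in DKO (adjusted p = 0.121 from limma), and Krt36 averaged 0.0230 FPKM in WT and 0.437 FPKM in DKO (adjusted p = 0.155 from limma). With limma's arrayWeights these 4 were called, and without the minimum 0 genes of the list were, so that Krt84 lost its call. The summed level of the list was 1.09 to 4.44 FPKM in WT, KO and KH and 52.8 and 14.3 FPKM in DKO, most of it Krt13. Krt13 was not called here, but was in 3 of the 24 fits run, among them that with the summed granular level, described above, as a covariate (3.13, SE 0.38, adjusted p = 0.00763 from limma) and that without the 3 libraries of low granular level (3.61, SE 0.26, adjusted p = 0.0435 from limma).

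For the inner root sheath, where trichohyalin is made, 8 of 9 markers were in the table, 6 were tested and 0 were called by limma in DKO against WT (1 with an unadjusted p under 0.05). Gata3, also made in the interfollicular epidermis, was between 27.9 and 36.1 FPKM, and of the others Krt73 was at most 1.92 FPKM and Krt28 at most 1.10 FPKM in any library. Without Gata3, the 7 keratins of the list summed to 1.47 and 0.703 FPKM in the WT embryos and to 1.18 to 4.66 FPKM in the mutants, the lowest sum being that of WT replicate 2, which had the highest Tchh; with Gata3 the sums were 29.9 to 39.6 FPKM in all libraries, nearly all of it Gata3. These levels are low, and their part in the values of Tchh was not tested. Of the 11 hair shaft and matrix markers that the table holds, 8 were tested and 0 were called (2 with an unadjusted p under 0.05, as had 13.8% of all tested genes). Their sums were 18.4 and 15.5 FPKM in WT, 19.5 to 38.9 FPKM in KO, 15.5 and 37.1 FPKM in KH and 32.6 and 35.6 FPKM in DKO. Lef1 was at 9.90 and 8.41 FPKM in WT and 11.2 and 17.2 FPKM in DKO. Krt34, named after its values were seen, was at 0.669 and 0.785 FPKM in WT and 14.2 and 3.65 FPKM in DKO (adjusted p = 0.0982 from limma).

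Among the layers of the epidermis, 0 of 6 spinous, 0 of 8 granular, 0 of 7 basal and 0 of 6 periderm and simple epithelium markers were called by limma in DKO against WT, while 3, 2, 1 and 3 of them had an unadjusted p under 0.05. Of all tested genes 13.8% did, the share to set beside each such count here. All 6 spinous log2 differences were negative, with a median of -1.25. In other fits 1 granular gene was called, Krt2 (higher in DKO, in 6 of the 24 fits run) or Dsc1 (lower, in 2), which is also on the spinous list, and Krt7 of the periderm list was called higher in 2; these were named after their values were seen. Markers of dermal fibroblasts summed to 250.6 and 297 FPKM in WT, 372 to 492 FPKM in KO and KH and 357 and 347 FPKM in DKO, nearly all of it Postn and Dcn, while the collagen gene Col1a1 was at most 2.65 FPKM in any library. Endothelial markers summed to at most 0.339 FPKM and skeletal muscle markers to at most 15.5 FPKM. Melanocyte markers summed to 46.6 and 42.4 FPKM in WT, 55.9 to 148 FPKM in KO and KH and 93.1 and 204 FPKM in DKO, immune cell markers to 9.66 and 3.70 FPKM in WT, 6.15 to 28.3 FPKM in KO and KH and 29.5 and 12.8 FPKM in DKO, and red blood cell markers to 531 and 78.7 FPKM in WT, 13.3 to 491 FPKM in KO and KH and 366 and 1289 FPKM in DKO; 0 genes of these 6 lists were called by limma, 1 fibroblast, 4 melanocyte and 2 immune cell genes had an unadjusted p under 0.05, and their part in the results was not tested.

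The value of Flg came from only a small part of the gene. GENCODE M21 gives Flg on chromosome 3 from 93273523 to 93293686 (plus strand, GRCm38) with a transcript of 14497 bases, but the older annotation behind the table split this span into 7 rows. The row used for Flg was the last, from 93292199 to 93293686, 1488 bases at the 3′ end. A second row named Flg covered the 5′ end (93273541 to 93282353), and the 5 rows between them were slices of the filaggrin repeats of 756 to 777 bases. A further row, Rplp0-ps1, was listed at the same span as the 5′ row and was not counted with these. The rows were picked by position after the table had been seen, and their fits are given for that reason as a description of the locus.

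The sequence shows how alike the repeats are, and 1 stretch of 60 bases is shown because it was present in all 5 slices and 16 times in the transcript, first at chr3:93280827-93280886 and last at chr3:93292883-93292942 (GRCm38, plus strand).
Flg repeat window: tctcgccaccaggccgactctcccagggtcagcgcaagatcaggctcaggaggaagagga
The 5 slices were between 95.8 and 99.3% identical to each other in 10 pairs. Of all windows of 100 bases, the read length, 71.3% occurred more than once in the Flg transcript, 67.3% in that of Hrnr, 55.5% in that of Flg2 and 2.43% in that of Tchh, against 0% in Rptn, Crnn and Tchhl1. No window of any member matched a transcript of another gene exactly. The study describes its mapped read pairs as unique, but how reads that match several places entered the FPKM values is not given in the sources used here, so that levels of rows within Flg are uncertain, and the 3 members that rose held no repeated window.

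The rows of the locus differed among themselves. In the 3′ row WT and DKO overlapped (above), and in the 5′ row the values were 277 and 291 FPKM in the WT embryos, 68.2, 731 and 257 FPKM in the KO embryos, 78.1 and 417 FPKM in the KH embryos and 655 and 44.5 FPKM in the DKO embryos. The DKO libraries lay on both sides of WT there. In the slice AC158361.3 (93288095 to 93288859) the level was 396 and 599 FPKM in the WT embryos, 101, 144 and 500 FPKM in the KO embryos, 143 and 464 FPKM in the KH embryos and 68.3 and 62.1 FPKM in the DKO embryos. Both DKO libraries were below the other 7, and the log2 difference from WT was -2.88 (SE 0.75, adjusted p = 0.155 from limma, not called). As a percent of the 3′ row, this slice was at 11.9 and 26.5% in the WT embryos, 7.90, 5.82 and 25.9% in the KO embryos, 14.2 and 12.2% in the KH embryos and 1.94 and 3.28% in the DKO embryos.

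The adjacent slice AC158361.2 (93290366 to 93291133) had a log2 difference of -1.90 (SE 0.73, adjusted p = 0.307 from limma) between DKO and WT, AC158361.1 one of -0.76, AC158361.6 one of -1.06 and AC158361.4 one of -1.49, none of them called. On the same scale the 5′ row was at -0.72 (SE 1.38), although its average FPKM in DKO was 123% of WT, and the 3′ row was at -0.09 (SE 0.67), and neither was called. All 7 rows thus had negative log2 values, and the differences between rows were not tested. When only WT and DKO were fitted, the adjusted p from limma fell to 0.00579 for AC158361.3 and to 0.0125 for AC158361.2, and with library weights that of AC158361.3 was 0.0329. Libraries also differed in how level followed transcript length: the rank correlation between a gene's deviation from its mean and its length, over 12100 genes as a description, was -0.27 in DKO replicate 1 and -0.33 in KO replicate 2 and between 0.02 and 0.23 in the other 7. The part of this, of the mixed strain background and of the repeats in the differences between rows was not tested.

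**Figure D4:**
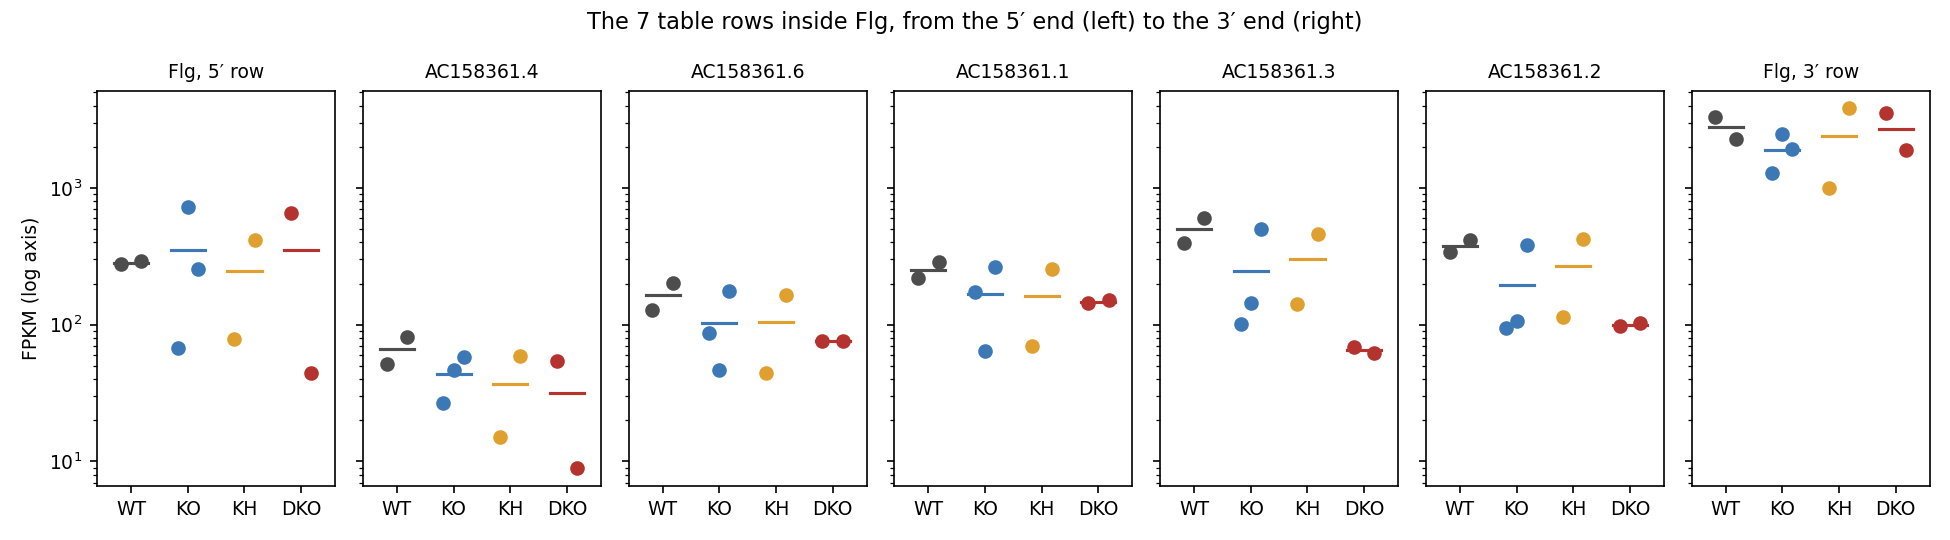
FPKM of the 7 table rows that make up Flg in each library on a shared log axis, ordered from the 5′ to the 3′ end. Points are embryos and lines genotype means. The 3′ row, which stands for Flg, is between 1005 and 3815 FPKM, the slices between 9.01 and 599 FPKM, and both DKO points of AC158361.3 are at or under 68.3 FPKM.

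On the chromosome the 7 members follow each other on the plus strand in the order Crnn, Flg2, Flg, Hrnr, Rptn, Tchh and Tchhl1, before S100a11 and S100a10. The members that rose are not neighbours. Crnn (93144787 to 93149471) is followed by Flg2 (93200210 to 93220793 in the table, with a 5′ end at 93197278 in GENCODE M21), and Rptn (93393699 to 93399442) by Tchh (93442330 to 93449077), which lies between it and Tchhl1 (93468754 to 93471980) with a gap of 19676 bases to the latter. The gap between Rptn and Hrnr (93319749 to 93333570) is 60128 bases. Log2 differences in DKO therefore went from 2.83 in Crnn to -1.76, -0.09 and -1.66 in Flg2, Flg and Hrnr, to 4.34 in Rptn, to -1.48 in Tchh and to 2.37 in Tchhl1. The nearest tested genes outside the family were not called either. Gm4858 before Crnn was at -0.50 (SE 0.24) and S100a11 after Tchhl1 at 1.01 (SE 0.41, adjusted p = 0.328 from limma). Rplp0-ps1, the next row after Flg2, was listed at the span of the 5′ row of Flg and was at 0.03 (SE 1.02). Of the 78 tested genes from S100a1 to S100a10, 21 were called in DKO against WT, 3 of them fused S100 genes and 18 others. All 21 were higher, and the called gene nearest to Crnn outside the family was Lce3f, of the Lce3 group of late cornified envelope proteins.

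**Figure D5:**
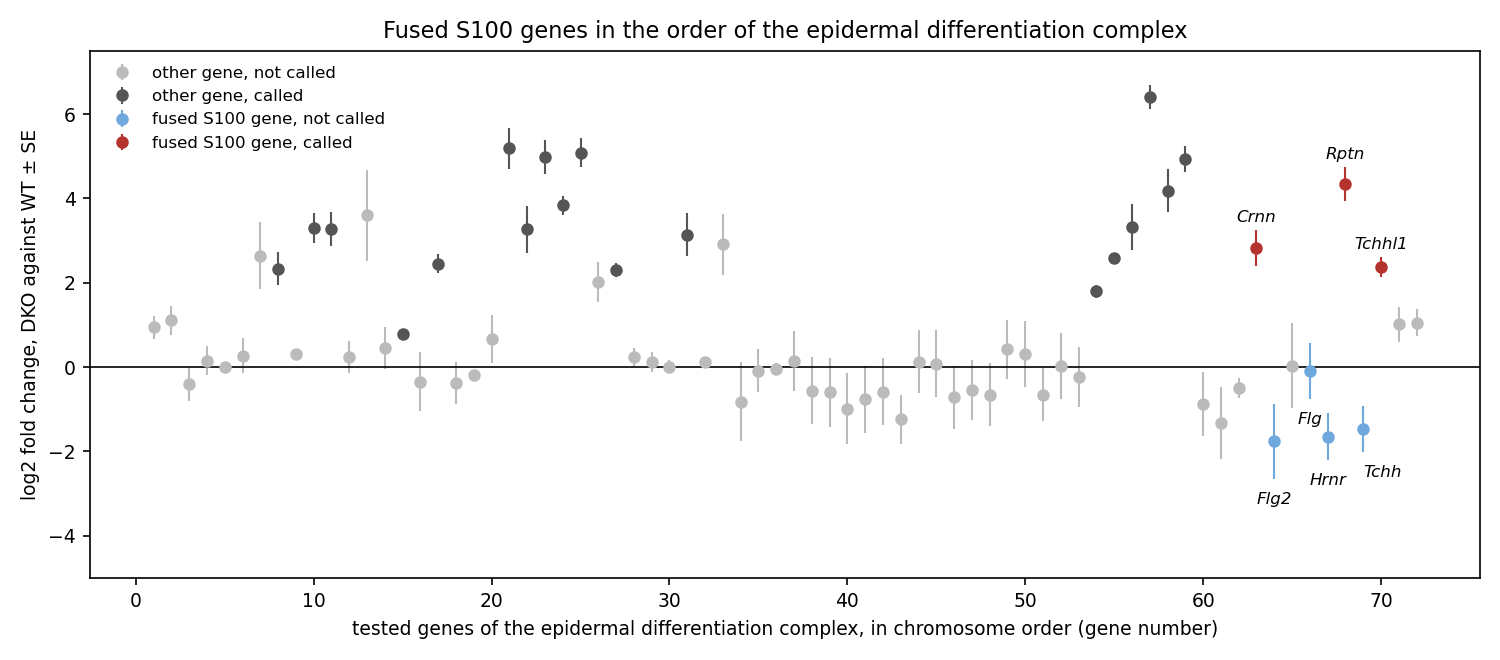
Log2 differences of DKO from WT with the standard error from limma for 72 tested genes of the epidermal differentiation complex in chromosome order. The 6 rows of Flg that do not stand for it are left out, and Rplp0-ps1, listed at the span of the 5′ row, is included. The called fused S100 genes Crnn (2.83), Rptn (4.34) and Tchhl1 (2.37) alternate with Flg2, Flg, Hrnr and Tchh, which lie at or below 0 and were not called.

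The genes whose pattern over the 9 libraries was most like a member's were found by Pearson's correlation of log2(FPKM + 1) among 12197 tested genes averaging at least 1 FPKM, as a description over libraries of which 2 are DKO. For Rptn they were Krt84 (r = 0.99), Areg, a ligand of the EGF receptor (0.98), and Lce3f (0.98), which averaged 2.66 FPKM in WT and 111 FPKM in DKO. For Crnn they were Fetub (0.99), Sec14l2 (0.98) and Ifi204 (0.98), an interferon-inducible gene at 6.12 FPKM in WT and 20.5 FPKM in DKO. For Tchhl1 they were SNORA42 (0.99), listed at 0 in WT, Spink12 (0.99) and Prr9 (0.99), a proline-rich gene of the same cluster that averaged 0.419 FPKM in WT and 6.93 FPKM in DKO. Krt84 reached the average of 1 FPKM only through its DKO values, and SNORA42, Spink12 and Prr9 averaged below 1 FPKM in WT. The likeness of such genes to a member that rose in DKO was therefore partly set by this minimum.

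The abundant members were most like other genes. Flg was most like Mapk13 (0.99), Nudt16 (0.98) and Ecm1 (0.98), extracellular matrix protein 1 of the upper epidermis, at 213 FPKM in WT and 197 FPKM in DKO on average. Flg2 was most like Ttc9 (0.98), AC151989.1 (0.98) and Aif1l (0.98). Hrnr was most like Gm94 (r = 0.996), which averaged 2623 FPKM in WT and 829 FPKM in DKO, and then Rps6ka6 (0.99) and Slc46a1 (0.99), at 28.0 and 19.6 FPKM in WT and 13.7 and 6.51 FPKM in DKO. Tchh had no gene as close, with Mfsd9 (0.95), Uhmk1 (0.94) and Vps8 (0.93) the nearest.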

How the data were processed

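The authors sequenced poly A selected RNA from E18.5 epidermis with a stranded kit as paired reads of 100 bases, aligned them with TopHat 1.4.1, with up to 3 mismatches, to the mm10 genome and to Ensembl transcripts of release 72, and computed the deposited FPKM values with Cuffdiff 2.2.0; its scaling between libraries and its use of strand are not given in the sources used here, and levels of genes that overlap on opposite strands are uncertain. The authors' mean columns were not used. Libraries were grouped by the sample labels, and each came from its own embryo.

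Of 38203 genes, the 16897 averaging above 0.1 FPKM in at least 1 genotype were fitted on log2(FPKM + 1) with limma 3.58.1 in R 4.3.3, in 1 fit of 9 libraries with 4 genotype means, 5 residual degrees of freedom and an intensity trend. The 6 comparisons were each adjusted over all tested genes (Benjamini-Hochberg), and calls needed both an adjusted p under 0.05 and averages more than 2-fold apart. The fit was tested on simulated data before use. FPKM gives no counts, so no counting intervals were computed. The study's own Cuffdiff test needs reads and was not repeated here. The study reports Rptn and Crnn as higher in DKO than in WT by that test and also by real-time RT-PCR.

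The members, the lists and the tests were chosen with earlier results of these data known. The genes named are the members, the called genes of each list (up to 6) with its 3 most abundant others, the 3 genes most like each member, its neighbours on the chromosome, and Esrp1 and Esrp2; others are marked as named after their values were seen. Lengths and positions came from GENCODE M21, promoters from RefSeq (GRCm38.p6). The sample labels do not say whether replicate numbers pair the libraries. In 12 same-numbered pairs the correlations of deviations from the genotype mean ran from -0.57 to 0.47, with 4 above 0.1. In a genotype of 2 libraries the deviations mirror each other, so these values cannot decide on pairing. Alternatives are given in the closing section. Python 3.11.15, pandas 2.3.3 and matplotlib 3.10.9 were used.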

Additional observations from a re-analysis of the deposited data

How the results depend on the processing

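With no filter on low levels, the members called in DKO numbered 0 against WT, 1 against KO and 1 against KH, in place of 3 each; the adjusted p from limma in DKO against WT was then 0.0673 for Rptn, 0.207 for Crnn and 0.0886 for Tchhl1, the log2 differences were as before, and all 38203 genes were tested. Fitting only the 2 genotypes compared left 1 member, Rptn, called in DKO against KH and called 1 gene of filaggrin processing, and limma's arrayWeights called 1 cornified envelope partner, Tgm5. The granular sum as a covariate called 1 gene of each of these lists, Hal and Tgm5; among the marker lists, some settings also called Krt13 (oral, 3 of 24 fits), Krt34 (hair shaft, 5 of 24 fits), Mlana and Dct (melanocytes, 2 and 1), all higher; this covariate and the fit without 3 libraries were added after the data were seen. Leaving out each library in turn gave 2 to 3 members called in DKO against WT, KO and KH and 0 in the other comparisons, and 0 genes of either list. With the replicate number as a block, 2 members were called against WT, 3 against KO and 2 against KH, Crnn being lost with an adjusted p of 0.0642 against WT and 0.0709 against KH at log2 differences of 2.83 and 2.99, as without the block. In these and the other settings (pseudocount 0.1, a minimum of 1 FPKM, no trend, TPM, median ratio and quantile scaling, a length correction, no fold threshold) no call changed sign, and 44 of 963 log2 differences of members, none of them called, did. Over all tested genes, the calls in DKO against WT numbered 123 (81 higher, 42 lower), 41 with no filter, 67 with the block, 67 without the 3 libraries, 54 to 152 with a library left out, 178 after rescaling to TPM (96 higher, 82 lower), 304 with the covariate, 400 with only the 2 genotypes (141 higher, 259 lower) and 556 with arrayWeights (250 higher, 306 lower). Where 1 library of a genotype was left, its spread was taken from the other genotypes. The cause of the changes was not tested. FPKM without counts limits what can be said of Tchhl1 outside DKO.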
